A study of Mus musculus with 2 samples.

Results

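The 6 genes that encode the chains of type IV collagen, Col4a1 to Col4a6, were followed across the cell types of the newborn mouse kidney. They were found by gene symbol among the 32285 genes listed for single-cell RNA sequencing, and all 6 were present. The data come from 2 libraries of kidney cells at postnatal day 0, made on the Chromium system and read at the 3' end of the transcripts. Both libraries carry 1 genotype, Rbpj c/+ ; Foxd1cre/+, that is 1 conditional allele of Rbpj, the DNA-binding partner of Notch receptors, together with a Cre recombinase under the control of Foxd1, a gene of stromal progenitors. Stroma, pericytes, mesangial cells and smooth muscle of the kidney descend largely from those progenitors, so the Cre is expected to act mainly in them. In which cells it acted was not measured here. No other genotype was analysed here, and no effect of the alleles could be tested. The labels do not say how many kidneys or animals each library holds, so p-values cover no more than the spread between these 2 libraries. That spread was estimated over all cell classes together, not from the classes compared alone.

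Type IV collagen is the network-forming collagen of basement membranes, and it is secreted as trimers whose composition differs between membranes. The alpha1 and alpha2 chains, products of Col4a1 and Col4a2, join in a trimer found in nearly every basement membrane and in the matrix of the glomerular mesangium. The alpha3, alpha4 and alpha5 chains, from Col4a3, Col4a4 and Col4a5, form the trimer of the mature glomerular basement membrane, which podocytes lay down as the glomerulus matures, and their loss causes Alport syndrome. The alpha5 chain also pairs with alpha6, from Col4a6, in Bowman's capsule and in some tubular membranes.

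The 6 genes lie as head-to-head pairs, each pair transcribed outward from a shared interval. In GENCODE M21 on GRCm38, Col4a1 (ENSMUSG00000031502) occupied chr8:11198423-11312826 on the minus strand and Col4a2 (ENSMUSG00000031503) chr8:11312805-11449287 on the plus strand. The annotated starts of these 2 genes were 21 bases apart. Col4a4 (ENSMUSG00000067158) lay at chr1:82448423-82586849 on the minus strand and Col4a3 (ENSMUSG00000079465) at chr1:82586921-82722059 on the plus strand, with starts 72 bases apart. Col4a6 (ENSMUSG00000031273) lay at chrX:141165403-141474076 on the minus strand and Col4a5 (ENSMUSG00000031274) at chrX:141475385-141689234 on the plus strand, with starts 1309 bases apart. Antisense genes overlapped some members, Gm15418 with Col4a1, Gm15419 with Col4a2 and C430014B12Rik with Col4a3. Whether strand or introns entered the counting is not given in the sources used here, so reads of such partners cannot be told apart from those of the members.

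Promoter windows of 300 bases, from 250 before to 50 after the start, were taken from RefSeq (GRCm38.p6) for 5 members, and Col4a3 was not among them. The windows of Col4a1 and Col4a2, which the shared interval makes overlap by 78 bases, are shown with that of Col4a4 because the data below show each of these genes moving with its partner. Capitals mark GGGCGG (or CCGCCC, its reverse complement) and CCAAT (or ATTGG), searched on both strands together with TATAAA (or TTTATA).
Col4a1, chr8:11312777-11313076, minus strand: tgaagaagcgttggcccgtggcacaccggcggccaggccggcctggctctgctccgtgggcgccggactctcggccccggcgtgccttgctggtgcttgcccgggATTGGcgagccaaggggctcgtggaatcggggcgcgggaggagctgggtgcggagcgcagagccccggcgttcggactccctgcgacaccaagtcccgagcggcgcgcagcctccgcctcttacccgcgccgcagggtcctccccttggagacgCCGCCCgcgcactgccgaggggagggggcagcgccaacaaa
Col4a2, chr8:11312555-11312854, plus strand: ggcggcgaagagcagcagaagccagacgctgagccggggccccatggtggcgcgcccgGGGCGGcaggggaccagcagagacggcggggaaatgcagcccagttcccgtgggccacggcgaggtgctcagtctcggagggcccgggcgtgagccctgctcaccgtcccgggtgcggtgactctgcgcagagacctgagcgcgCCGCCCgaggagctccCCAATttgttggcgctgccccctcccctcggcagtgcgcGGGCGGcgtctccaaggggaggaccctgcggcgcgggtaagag
Col4a4, chr1:82586800-82587099, minus strand: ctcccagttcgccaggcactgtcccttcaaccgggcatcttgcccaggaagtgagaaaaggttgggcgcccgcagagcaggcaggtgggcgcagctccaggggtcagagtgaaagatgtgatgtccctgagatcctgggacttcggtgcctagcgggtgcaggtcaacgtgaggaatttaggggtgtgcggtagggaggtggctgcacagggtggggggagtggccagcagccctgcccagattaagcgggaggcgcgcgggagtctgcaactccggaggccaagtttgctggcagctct
The Col4a1 window held 1 GGGCGG and 1 CCAAT match, the Col4a2 window 3 and 1, and the Col4a4 window neither motif. The Col4a5 window (chrX:141475169-141475468) held 1 of each and the Col4a6 window (chrX:141474027-141474326) 1 GGGCGG match. None of the 5 windows held TATAAA. Over all 32851 promoter windows of the same length, 35.7% held GGGCGG, 37.4% CCAAT and 13.6% TATAAA. The share of G and C bases was 74.0% for Col4a1, 73.7% for Col4a2, 63.3% for Col4a4, 52.7% for Col4a5 and 48.3% for Col4a6, against a median of 52.7% over all windows. These matches describe the sequences and are not evidence of binding.

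A barcode was kept as a cell if it had no fewer than 3000 unique molecular identifiers (UMIs) from 500 or more genes, and if mitochondrial transcripts gave 20% of its UMIs or less. This left 5529 cells in library 1 and 4206 in library 2, from totals of 200331687 and 173166168 UMIs over all barcodes. The median depth was 15016 and 20007.5 UMIs per cell, and 6 barcode sequences occurred in both libraries. A cell entered a class when at least 3 markers of that class were on, each with at least 2 UMIs and at least 5-fold its level in empty droplets, and cells passing the gates of several classes were left out. This gave 16 classes with at least 20 cells in each library, 6413 cells in all. In each of the 16 classes all of its markers stood above their mean over the other classes. Cells of the endothelium gate with at least 2 glomerular markers on (52 and 27 cells) formed a class of their own and are not counted as endothelial-like. Endothelial markers led this class more than glomerular ones. It is called glomerular endothelial-like with that limit. No chain gene served in any gate. Levels are the summed counts of a class scaled to the total UMIs of that class, in CPM. Renin cells had no gate of their own. The 2 renin cell markers summed to 1449 and 654 CPM in pericyte or mesangium-like cells and 7303 and 14130.5 in smooth muscle-like cells. Ren1 stood furthest above the other classes in both, so both names carry the limit that renin-expressing cells are included. Because transcripts were read at their 3' ends, a level is not expected to scale with transcript length. Whether introns were counted is not known, and the genes span from 114 kb (Col4a1) to 309 kb (Col4a6). Levels, shares and ratios of different chains are set side by side with that limit.

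The chains made differed by cell type. Podocyte-like cells stood apart for the alpha3, alpha4 and alpha5 chains, and mural, endothelial and stromal cells for alpha1 and alpha2. In a single edgeR quasi-likelihood fit over the 32 class sums, each chain in each class was set against its average over the remaining 15 classes, called the class average below. That average is unweighted and taken on the log scale after TMM scaling. A class can therefore lie above it and still below the plain mean of the CPM values. A library term took out differences shared by all classes. The spread left over, with 15 residual degrees of freedom, was estimated from all classes together. A small p-value can therefore go with unequal values in the 2 libraries. Of 96 such chain-by-class tests 68 passed an adjusted p of 0.05 (Benjamini-Hochberg over 16550 genes), 35 of them higher and 33 lower. Over all genes 39.6% of the gene-by-class tests passed, 24% higher and 15.7% lower. By class the share of genes that passed was 47.3% in podocyte-like, 49.6% in nephron progenitor-like, 49.1% in early nephron-like, 54.5% in proximal tubule-like, 45% in loop of Henle-like and 42% in distal tubule-like cells. It was 39.3% in ureteric tip-like, 36.5% in collecting duct-like and 33.1% in intercalated-like cells. Among the other classes it was 44.7% in endothelial-like, 40% in glomerular endothelial-like, 43.2% in stroma-like, 39.4% in pericyte-like, 21.1% in smooth muscle-like, 42% in macrophage-like and 7.06% in erythroid-like cells. All 6 members passed the filter on low counts. The chains differed in how many classes passed, with 13 of 16 for Col4a1 and Col4a4, 12 for Col4a2, 11 for Col4a3, 10 for Col4a5 and 9 for Col4a6.

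**Figure D1:**
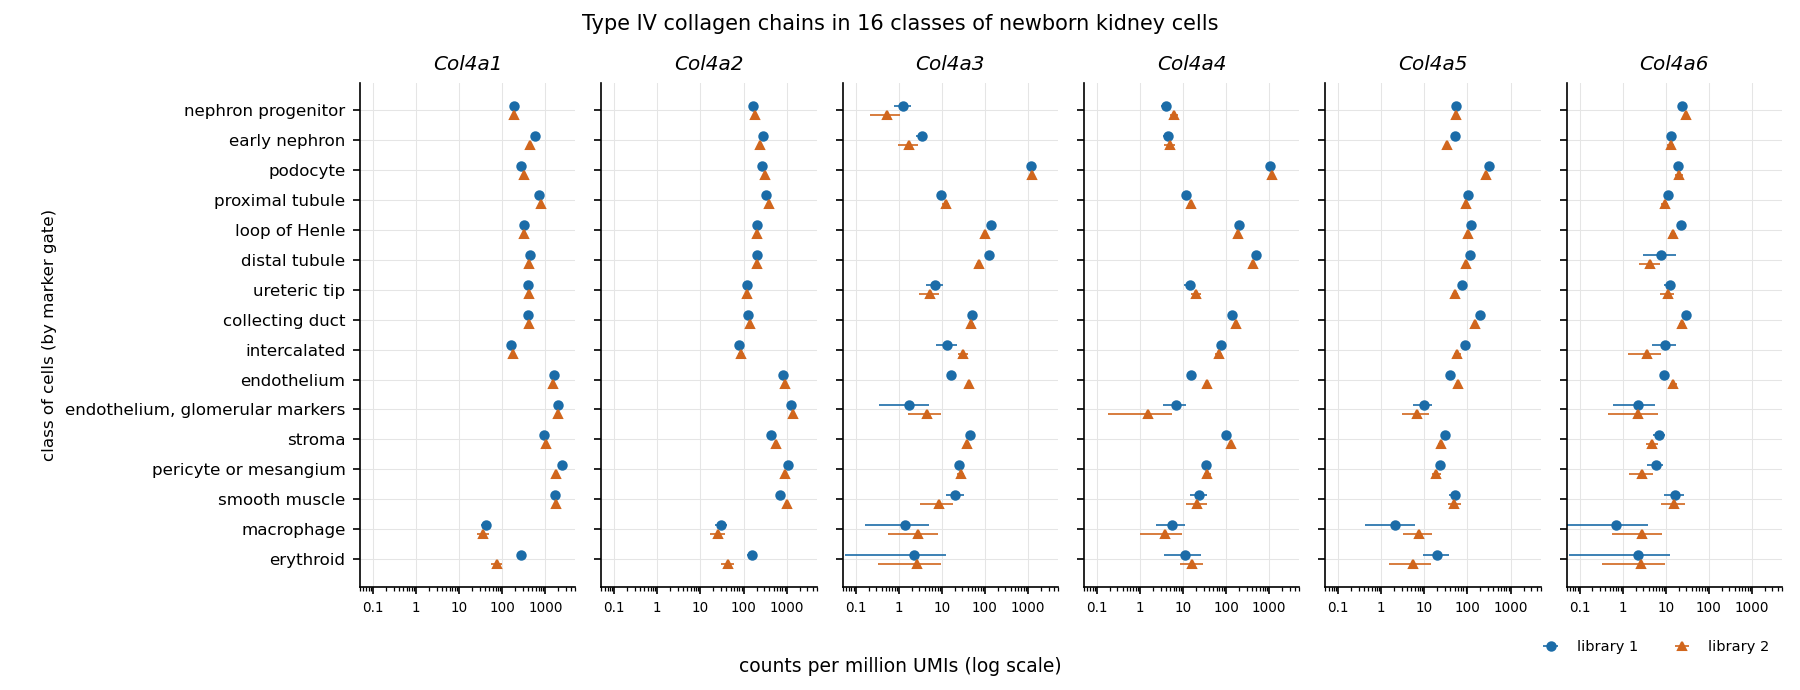
Levels of the 6 chains in 16 classes of cells, in CPM on a log axis, with 1 point for each library and exact Poisson 95% intervals that cover counting error only. Podocyte-like cells hold the highest Col4a3, Col4a4 and Col4a5, whereas Col4a1 and Col4a2 lie highest in pericyte-like, endothelial-like and smooth muscle-like cells.

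Col4a1 was the most abundant chain of most classes. It stood highest in pericyte or mesangium-like cells, the contractile cells along capillaries and in the glomerular core, at 2407 CPM in library 1 and 1797 in library 2. Glomerular endothelial-like cells held 2018 and 2001 CPM, smooth muscle-like cells 1701 and 1774, and endothelial-like cells 1618 and 1539. The first 2 of these classes overlapped, and the others each lay apart from the next. Stroma-like cells followed at 913 and 1042 CPM. Among epithelia, proximal tubule-like cells held the most, 709 and 790 CPM, and were above the class average (log2 fold change 0.85 ± 0.11 SE, adjusted p = 4.4e-07). Nephron progenitor-like cells held 186 and 185 CPM and intercalated-like cells 163 and 181, both below the class average (log2 fold changes -1.54 and -1.62, adjusted p = 3.43e-09 and 4.99e-09). Macrophage-like cells, which make no basement membrane, held 43.0 and 36.2 CPM. Empty droplets, whose UMIs are free RNA, held 500.3 and 472 CPM.

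Col4a2, whose product pairs with alpha1, had nearly the same order of classes. It was highest in glomerular endothelial-like cells at 1259 and 1394 CPM, followed by pericyte or mesangium-like cells at 1067 and 913. Endothelial-like cells (845 and 901 CPM) and smooth muscle-like cells (696 and 1014 CPM) overlapped. The lowest levels outside the blood lineages were in intercalated-like cells, 79.7 and 89.1 CPM, and in ureteric tip-like cells, 123 and 120.3. Ureteric tip-like cells thus held Col4a1 at 393 and 411 CPM but far less Col4a2, and both values lay below the class average (log2 fold changes -0.48 ± 0.13 and -1.37 ± 0.14 SE, adjusted p = 0.00389 and 3.48e-08). The Col4a1 call was lost with free RNA subtracted (adjusted p = 0.179).

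Col4a3 and Col4a4 followed another pattern. Podocyte-like cells, the epithelial cells that wrap the glomerular capillaries, held Col4a3 at 1152 and 1253 CPM and Col4a4 at 1032 and 1158. The log2 fold change over the class average was 6.57 ± 0.16 (SE) for Col4a3 and 5.25 ± 0.12 for Col4a4, with edgeR adjusted p = 6.38e-20 and 2.87e-20. Of all Col4a3 UMIs in gated cells, 74.4% and 65.3% came from podocyte-like cells, which made up 6.51% and 4.45% of all cells. At an equal depth of 3000 UMIs, 86.7% and 89.3% of podocyte-like cells had a Col4a3 UMI, against 0 of 115, which allows up to 3.16%, and 1.61% of macrophage-like cells. At full depth the shares were 96.9% and 96.8% in podocyte-like cells and 1.74% and 4.84% in macrophage-like cells, whose median depths were 9244.5 and 14118 UMIs against 11743 and 13870.5.

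Outside podocytes, levels of both chains were highest in the distal nephron. Loop of Henle-like cells had 137 and 101 CPM of Col4a3 and 197 and 189 of Col4a4. Distal convoluted or connecting tubule-like cells (31 and 85 cells) had 126 and 72.5 CPM of Col4a3 but 502 and 409 of Col4a4, the second highest level of that chain. Collecting duct-like cells had 50.8 and 48.8 CPM of Col4a3 and 134 and 166 of Col4a4. All 6 of these values lay above the class average, with log2 fold changes of 1.54 to 4.04. The podocyte marker list summed to 25.1 to 161 CPM in these 3 classes, against 16389 and 14436 in podocyte-like cells. Early in the nephron lineage, nephron progenitor-like cells held 1.28 and 0.530 CPM of Col4a3 and early nephron-like cells 3.41 and 1.75. Macrophage-like cells held 1.39 and 2.79 CPM, so these levels cannot be told apart from free RNA.

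Col4a5, the chain that both the glomerular and the capsular trimers need, was spread more widely. It was highest in podocyte-like cells at 312 and 268 CPM, then in collecting duct-like cells at 194 and 149.6. Loop of Henle-like (119.8 and 104 CPM), distal tubule-like (115 and 92.5) and proximal tubule-like cells (101 and 94.7) overlapped one another in turn. These 5 epithelial classes and intercalated-like cells were the 6 in which Col4a5 was above the class average, by log2 fold changes of 0.62 to 2.78. The lowest of these, in intercalated-like cells, was lost without the macrophage-like and erythroid-like classes (0.24, adjusted p = 0.279). It was lower in glomerular endothelial-like cells (9.58 and 6.74 CPM), macrophage-like, pericyte-like and stroma-like cells. Nephron progenitor-like cells held 53.8 and 54.5 CPM and did not pass (adjusted p = 0.374).

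Col4a6 had the lowest maximum of the 6 chains, 30.2 CPM. Collecting duct-like cells held 30.2 and 23.9 CPM and nephron progenitor-like cells 23.7 and 28.8, and these 2 classes overlapped. Podocyte-like (19.1 and 20.7 CPM), loop of Henle-like (22.4 and 14.5) and smooth muscle-like cells (16.4 and 15.6) came next and overlapped in turn. The progenitor level was above the class average (log2 fold change 1.64 ± 0.18 SE, adjusted p = 9.03e-08), although the same cells were among the lowest for Col4a1, Col4a3 and Col4a4. Of 15 neighbouring pairs in the order of classes, 12 overlapped for Col4a6, against 5 for Col4a2 and 6 for Col4a1, so the order is poorly resolved for this chain.

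The balance of chains within a class was described as shares of all type IV collagen UMIs, with no test, since 2 libraries cannot reach 0.05 in an exact permutation test. In podocyte-like cells Col4a3 and Col4a4 made up 71.6% (95% exact binomial interval 71.0 to 72.3) and 72.1% (71.4 to 72.9), Col4a1 and Col4a2 17.5% and 19.2%, and Col4a5 10.2% and 8.03%. In every other class Col4a1 and Col4a2 together exceeded Col4a3 and Col4a4. Distal tubule-like cells came nearest with 42.4% ± 3.41 (SD, n = 2), then loop of Henle-like cells with 32.2% ± 1.83, intercalated-like cells with 22.0% ± 1.33 and collecting duct-like cells with 21.1% ± 2.12. Col4a5 took its largest shares in the collecting system, 18.2% ± 3.47 in collecting duct-like and 16.9% ± 4.66 in intercalated-like cells. In nephron progenitor-like cells, before any tubule has formed, alpha1 and alpha2 made up 80.5% ± 0.507, Col4a5 12.2% ± 0.295 and Col4a6 5.91% ± 0.615, the largest Col4a6 share of the 16 classes. Early nephron-like cells held 92.5% ± 0.128 as alpha1 and alpha2, and 99.4% and 99.6% of the UMIs of glomerular endothelial-like cells were of those 2 chains. All intervals cover counting error only.

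**Figure D2:**
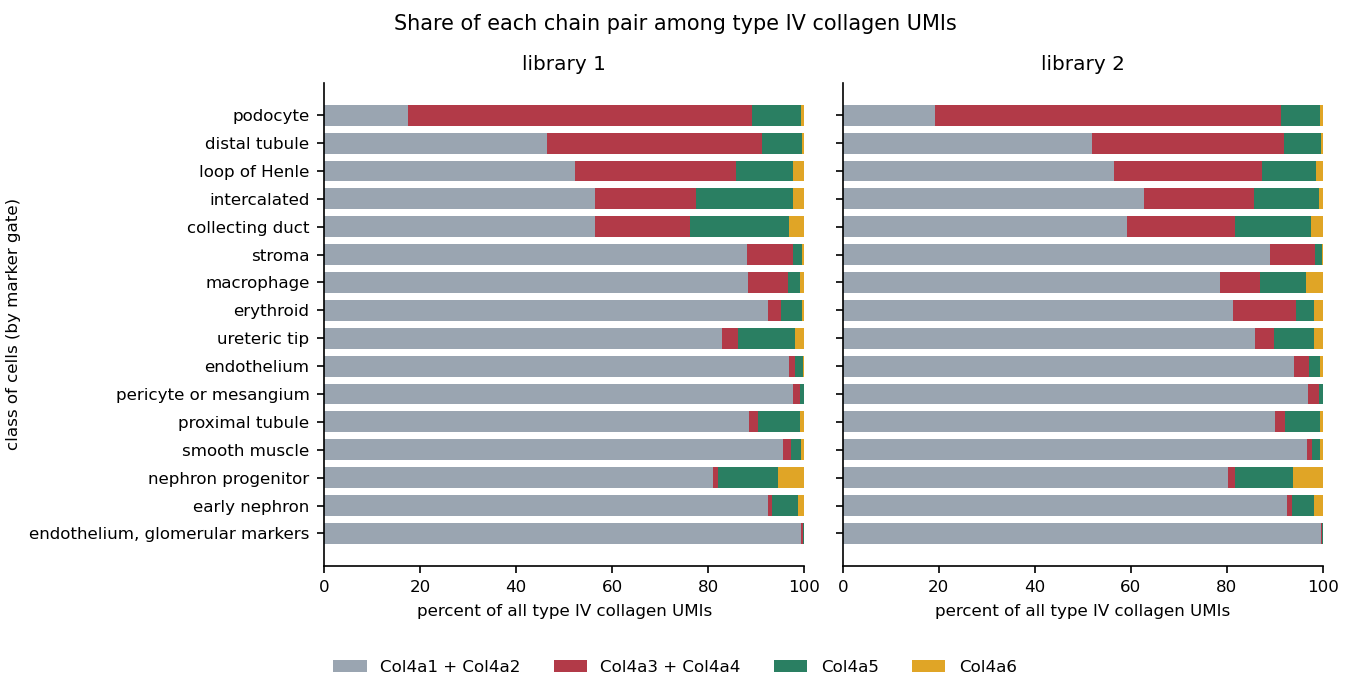
Percent of all type IV collagen UMIs held by Col4a1 + Col4a2, Col4a3 + Col4a4, Col4a5 and Col4a6 in each class, for library 1 (left) and library 2 (right). The Col4a3 + Col4a4 share is 71.6% and 72.1% in podocyte-like cells, lies between 19.6% and 44.8% in distal tubule-like, loop of Henle-like, intercalated-like and collecting duct-like cells, and is 0.176% to 0.918% in early nephron-like and glomerular endothelial-like cells.

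Partner chains of a pair were not made in a fixed ratio. Podocyte-like cells held 1.03 and 0.993 Col4a1 UMIs for each Col4a2 UMI and nephron progenitor-like cells 1.13 and 1.03. Endothelial-like cells held 1.91 and 1.71, distal tubule-like cells 2.25 and 2.10 and pericyte-like cells 2.26 and 1.97. Ureteric tip-like and collecting duct-like cells held the most, 3.20 and 3.41 in the former and 3.18 and 3.06 in the latter. The spread between libraries (SD 0.0286 to 0.204 in these 7 classes) was small beside that range. Smooth muscle-like cells, not among the 7, had the largest spread of the 16 classes, with ratios of 2.44 and 1.75 (SD 0.492). Intercalated-like cells of the collecting system, also not among the 7, held 2.04 and 2.03. The ratio of Col4a3 to Col4a4 was 1.12 and 1.08 in podocyte-like cells, 0.696 and 0.532 in loop of Henle-like cells, 0.380 and 0.293 in collecting duct-like cells and 0.251 and 0.177 in distal tubule-like cells. Outside podocytes Col4a4 therefore exceeded Col4a3 in all of these epithelia. Col4a5 exceeded Col4a6 in every class of the fit, by 16.3 and 13.0 to 1 in podocyte-like cells and by 2.27 and 1.89 to 1 in nephron progenitor-like cells.

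**Figure D3:**
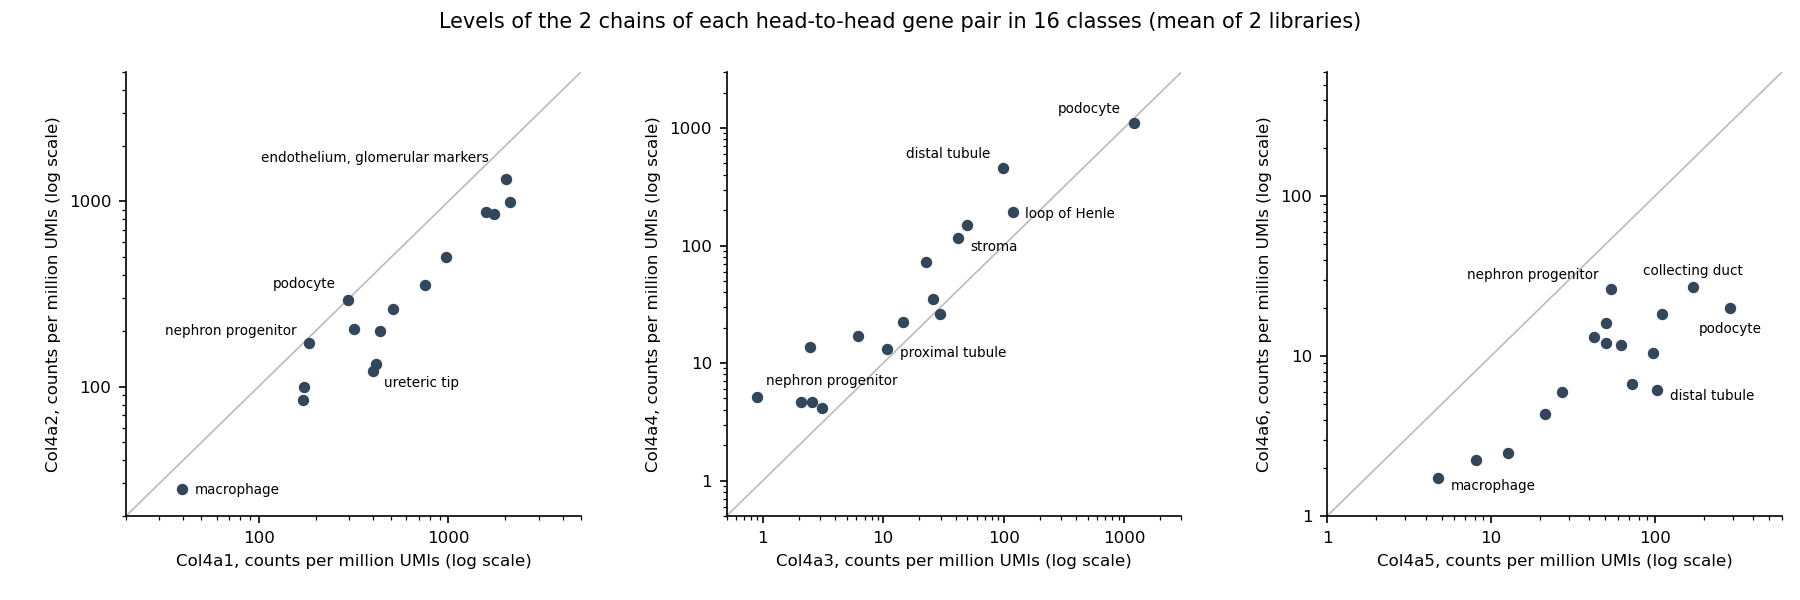
Level of 1 chain against its head-to-head partner in the 16 classes, in CPM on log axes, mean of the 2 libraries, with a grey line of equality. Col4a1 against Col4a2 and Col4a3 against Col4a4 lie along a diagonal, with podocyte-like cells on the line and distal tubule-like cells above it for Col4a4, whereas every class lies below the line for Col4a6.

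Across the 16 classes, Col4a1 and Col4a2 were each other's closest match, as were Col4a3 and Col4a4, whereas Col4a5 and Col4a6 were not. The Pearson correlation of log2(CPM + 1) was 0.958 between Col4a1 and Col4a2 and 0.951 between Col4a3 and Col4a4, and in both pairs the partner ranked 1 among 16549 genes. Col4a5 and Col4a6 correlated at 0.827, where Col4a6 ranked 49 for Col4a5 and Col4a5 ranked 8 for Col4a6. Col4a5 correlated at 0.697 with Col4a3 and 0.701 with Col4a4, the chains of its glomerular trimer, and at 0.096 with Col4a1. The classes share 2 libraries and their free RNA, so these values are descriptions over 16 points. After the partner, Col4a1 was most like Igf2r (0.923), Klf12 and Apbb2. Col4a3 was most like Optn (0.897), AU015336 and Myl3, and Col4a4 most like Adcy1 (0.876), Optn and Fam222a. Optn, which encodes the autophagy receptor optineurin, stood at 360.4 and 353 CPM in podocyte-like cells and at 2.06 and 3.33 CPM in nephron progenitor-like cells. Adcy1, an adenylate cyclase, stood at 294 and 325 CPM against 2.31 and 1.74. Col4a6 was most like 4930579K19Rik (0.875), Syde2 and 2500004C02Rik.

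Podocytes and glomerular endothelium face each other across the glomerular basement membrane. The endothelial-like class compared first leaves out cells with at least 2 glomerular markers on, so its cells need not face that membrane. Podocyte-like and endothelial-like cells held different chains. All 6 chains differed between podocyte-like and endothelial-like cells, 4 higher and 2 lower in podocyte-like cells, where 50.1% of the 16550 genes passed, 24.9% higher and 25.2% lower. Col4a1 was lower in podocyte-like cells, at 271 and 319.7 CPM against 1618 and 1539 (log2 fold change -2.41 ± 0.17 SE, adjusted p = 4.79e-11). Col4a2 was lower too, at 262 and 322 CPM against 845 and 901 (-1.58 ± 0.16, adjusted p = 2.84e-08). The other chains ran the other way, and the libraries did not overlap for any chain. Col4a3 was higher by a log2 fold change of 5.35 ± 0.36 (adjusted p = 1.89e-11), Col4a4 by 5.43 ± 0.28 (2.67e-13) and Col4a5 by 2.52 ± 0.20 (3.06e-10). Col4a6 was higher by only 0.70 ± 0.27 (adjusted p = 0.034). That call was lost with likely doublets removed (adjusted p = 0.077), with free RNA subtracted (0.101), with the DESeq2 Wald test (0.0563), without the library block (0.0574) and without the macrophage-like and erythroid-like classes (0.0514).

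Set against glomerular endothelial-like cells alone, a comparison added later, the same 4 chains were higher and the same 2 lower in podocyte-like cells, where 41.7% of genes passed, 21.4% higher and 20.2% lower. Col4a3 stood at 1.69 and 4.49 CPM in glomerular endothelial-like cells, from 3 and 6 UMIs, and Col4a4 came from 12 and 2 UMIs. Those levels did not exceed the macrophage-like ones beyond counting error. Compared with endothelial-like cells, glomerular endothelial-like cells were lower for Col4a3, Col4a4, Col4a5 and Col4a6 (log2 fold changes -3.42, -2.58, -2.71 and -2.52, adjusted p = 0.00212, 0.00109, 8.16e-06 and 0.0068), where 5.79% of genes passed, 2.65% higher and 3.14% lower. In endothelial-like cells 14 of 608 and 29 of 537 cells held 62.9% and 85.4% of the Col4a3 and Col4a4 UMIs. The others stood at 12.5 CPM for both chains together, so the fold changes of these 2 chains depend on few cells. Haemoglobin genes gave an estimate of free RNA in the glomerular endothelial-like sum of 53.6% in library 1 and 3.36% in library 2. Empty droplets of library 1 held Col4a3 at 55.0 and Col4a4 at 66.3 CPM, and that share of them exceeds the 1.69 and 6.76 CPM in the class. The estimate for library 1 is therefore too high for these chains, and subtracting it supports nothing here.

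Endothelial-like cells held unequal Col4a3 in the 2 libraries, 16.6 and 42.9 CPM, and Col4a4 at 15.7 and 36.8. The test gave Col4a3 a log2 fold change of 0.86 ± 0.26 over the class average (adjusted p = 0.00913), and the values from each library alone were 0.11 and 1.43. That call was lost at 10000 UMIs or more (adjusted p = 0.0523), with 1 more marker asked for (0.156) and without the macrophage-like and erythroid-like classes (0.0765). Col4a4 in the same cells was below the class average (-0.54 ± 0.20, adjusted p = 0.0337), with values of -1.15 and -0.0074 from each library alone. That call was lost at 10% mitochondrial UMIs or fewer (adjusted p = 0.868), with free RNA subtracted (1) and without the library block (0.109). Few cells carried the UMIs of both chains. Cells with at least 5 UMIs of Col4a3 and Col4a4 were 14 of 608 in library 1 and 29 of 537 in library 2, and they held 62.9% and 85.4% of those UMIs. In the remaining endothelial-like cells both libraries stood at 12.5 CPM for the 2 chains together. The whole podocyte list of 8 markers summed to 1192 and 442 CPM in the rich cells and 722 and 665 CPM in the others, Podxl, which endothelium also expresses, giving 240.0 and 146 of the former.

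Of 45 genes that fold, modify, crosslink, bind or degrade type IV collagen, 18 were higher and 19 lower in podocyte-like than in endothelial-like cells, with a median log2 fold change of 0.09 against 0.01 over all genes. Ddr1, a collagen receptor kinase, was higher at 165 and 172 CPM against 2.31 and 2.74 (log2 fold change 6.05 ± 0.22 SE, adjusted p = 1.15e-15). P3h2, a prolyl 3-hydroxylase that acts on type IV collagen, stood at 1020.5 and 1175 CPM against 73.7 and 103 (3.64 ± 0.32, adjusted p = 1.67e-09). Loxl2, a lysyl oxidase that crosslinks it, and Plod2, a lysyl hydroxylase, were higher by 3.80 and 3.62. Lower in podocyte-like cells were Hspg2, encoding perlecan, at 14.5 and 15.3 CPM against 327 and 384 (-4.56 ± 0.22, adjusted p = 9.99e-14), Itga2, an integrin subunit, Nid2, a nidogen, and Ddr2, the other collagen receptor kinase.

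Podocytes arise from the early nephron, whose forming glomeruli still carry alpha1 and alpha2. Against early nephron-like cells, 5 of 6 chains differed, 4 higher and 1 lower, where 55.2% of genes passed, 26.3% higher and 28.9% lower. Col4a3 was at 1152 and 1253 CPM in podocyte-like cells against 3.41 and 1.75 in early nephron-like cells, and Col4a4 at 1032 and 1158 against 4.47 and 4.89 (log2 fold changes 8.85 ± 0.45 and 7.92 ± 0.33, adjusted p = 2.7e-13 and 1.64e-14). Col4a5 was at 312 and 268 CPM against 50.8 and 34.0 (2.85 ± 0.20, adjusted p = 6.85e-11). These 3 chains of 1 trimer were therefore all higher. In early nephron-like cells the first 2 stood near the free RNA level and Col4a5 at a clear level. Both classes were taken at postnatal day 0, and no change over time was followed. Col4a1 was lower at 271 and 319.7 CPM against 586 and 434 (-0.72 ± 0.16, adjusted p = 0.00075). Col4a2 had a log2 fold change of 0.22 ± 0.16 (adjusted p = 0.258), with 262 and 322 CPM against 286 and 236, and passed among cells of at least 10000 UMIs (0.39, adjusted p = 0.0317). Col4a6 was higher by 0.65 ± 0.27 (adjusted p = 0.0427), a call lost with likely doublets removed (adjusted p = 0.102), with 1 more marker asked for (0.187), with free RNA subtracted (0.107), with the DESeq2 Wald test (0.0642) and without the library block (0.076).

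Of the 45 pathway genes, 26 were higher and 10 lower in podocyte-like than in early nephron-like cells, with a median log2 fold change of 0.53 against -0.03 over all genes. Loxl2 was at 321 and 369 CPM against 6.59 and 5.59 (5.85 ± 0.32, adjusted p = 1.05e-12). Timp3, an inhibitor of metalloproteinases, was at 773 and 765 CPM against 22.8 and 15.1 (5.40 ± 0.26, adjusted p = 1.62e-13), and P3h2 was higher by 4.83 ± 0.34. Lama1, a laminin chain of early basement membranes, was at 16.1 and 17.8 CPM against 432 and 383 (-4.53 ± 0.26, adjusted p = 2.24e-12), and Itga1, Hspg2 and P3h3 were lower with log2 fold changes of -1.97 to -1.54.

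At the preceding step, nephron progenitor-like cells were compared with early nephron-like cells, again a comparison added later. There 3 of 6 chains differed, 1 higher and 2 lower, where 31% of genes passed, 13.9% higher and 17% lower. Col4a1 was at 186 and 185 CPM in progenitor-like cells against 586 and 434 (-1.42 ± 0.17, adjusted p = 5.1e-07), and Col4a2 at 164 and 179.8 against 286 and 236 (-0.57 ± 0.16, adjusted p = 0.00878). Col4a6 was higher in progenitor-like cells, 23.7 and 28.8 CPM against 13.3 and 13.2 (1.03 ± 0.25, adjusted p = 0.00258), a call lost with 1 more marker asked for (0.0838).

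Single podocyte-like barcodes held UMIs of both kinds of chain. At an equal depth of 3000 UMIs, 43.6% and 51.3% had a UMI of Col4a1 or Col4a2 together with 1 of Col4a3 or Col4a4. Barcodes with only Col4a3 or Col4a4 were 48.6% and 44.4%, and those with only Col4a1 or Col4a2 were 6.39% and 3.74%. At full depth, where a cell has more chances to hold a UMI of free RNA, 73.6% and 85.0% had both. In macrophage-like cells 0 of 115 and 0 of 62 had both at equal depth, which allows up to 3.16% and 5.78% (exact binomial), and 3.48% and 8.06% at full depth. In loop of Henle-like cells, the other abundant class with Col4a3, both kinds were found together in 37.4% and 31.1%, only Col4a1 or Col4a2 in 37.4% and 40.8%, and only Col4a3 or Col4a4 in 16.8% and 14.2%.

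In the ureteric lineage, the branching tip and the collecting duct differed in alpha3 to alpha6, and no difference in alpha1 or alpha2 was called. Ureteric tip-like cells differed from collecting duct-like cells in 4 of 6 chains, all 4 lower, where 30.8% of genes passed and 15.3% were lower. Col4a4 was at 14.2 and 19.9 CPM in tip-like against 134 and 166 in collecting duct-like cells (-3.18 ± 0.29, adjusted p = 2.92e-08), and Col4a3 at 6.97 and 5.34 against 50.8 and 48.8 (-3.04 ± 0.45, adjusted p = 1.57e-05). Col4a5 was at 73.0 and 52.0 CPM against 194 and 149.6 (-1.50 ± 0.20, adjusted p = 5.32e-06), and Col4a6 at 12.4 and 11.0 against 30.2 and 23.9 (-1.24 ± 0.30, adjusted p = 0.00276). Both libraries showed all 4 differences without overlap. The distal convoluted or connecting tubule marker list summed to 2007 and 2343 CPM in collecting duct-like cells and 547 and 585 in tip-like cells. In distal tubule-like cells it summed to 10177 and 14456.5 CPM. A part of connecting tubule cells in the collecting duct-like levels was not tested. Col4a1 stood at 393 and 411 CPM against 404 and 424 (-0.09 ± 0.16, adjusted p = 0.751), and Col4a2 at 123 and 120.3 against 127 and 138 (-0.16 ± 0.17, adjusted p = 0.508). Of the 45 pathway genes 9 were higher and 14 lower in tip-like cells, with a median of 0.05 against -0.01 over all genes. Mmp2, a gelatinase that cleaves type IV collagen, was higher at 23.6 and 37.0 CPM against 3.27 and 4.26 (2.94 ± 0.33, adjusted p = 4.97e-07), as were P3h3, Plod2 and Pxdn, the peroxidase that crosslinks type IV collagen. Ddr1, P3h2, Col18a1 and Colgalt2 were lower in tip-like cells.

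Collecting duct-like cells were also set against the mean of proximal, loop and distal tubule-like cells. There 4 of 6 chains differed, 2 in each direction, where 35.8% of genes passed, 18.5% higher and 17.3% lower. Col4a5 was higher by 0.48 ± 0.15 (adjusted p = 0.0161) and Col4a6 by 1.17 ± 0.23 (adjusted p = 0.000324). Col4a1 was lower by a log2 fold change of -0.42 ± 0.14 (adjusted p = 0.0197) and Col4a2 by -1.11 ± 0.14 (adjusted p = 1.8e-06). Col4a3 and Col4a4 had log2 fold changes of -0.21 ± 0.27 and 0.28 ± 0.19 (adjusted p = 0.592 and 0.286). With at most 10% mitochondrial UMIs, a limit that removes the distal tubule-like class and many cells of the other classes, Col4a4 was higher by 1.42 (adjusted p = 3.99e-05). With free RNA subtracted the calls of Col4a1 (adjusted p = 0.258) and Col4a5 (0.0875) were lost. Of the pathway genes 12 were higher and 10 lower, with a median of -0.06 against 0.01. Adgrg6, an adhesion receptor that binds type IV collagen, was higher by 4.27 ± 0.19 (adjusted p = 4.24e-14), at 126 and 93.1 CPM, followed by Itga2, Timp2 and Lama5. Itga1, the alpha subunit of an integrin that binds type IV collagen, was lower by a log2 fold change of -3.50 ± 0.27, with Lama1, P3h1 and Nid2.

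Among stromal and mural cells, where the Cre is mainly expected to act, pericyte or mesangium-like cells held more alpha1 and alpha2 and less alpha4 than stroma-like cells. These 3 of 6 chains passed, 2 higher and 1 lower, where 7.66% of genes did, 3.79% higher and 3.86% lower. Col4a1 was at 2407 and 1797 CPM against 913 and 1042 (1.08 ± 0.16, adjusted p = 9.74e-05), and Col4a2 at 1067 and 913 against 444 and 562 (0.96 ± 0.16, adjusted p = 0.00033). Col4a4 was at 33.3 and 36.8 CPM against 101 and 130.3 (-1.74 ± 0.26, adjusted p = 7.8e-05). The groups did not overlap in either library for these chains. Col4a3 and Col4a5 had log2 fold changes of -0.72 and -0.37 (adjusted p = 0.282 and 0.454), and passed with likely doublets removed (-1.58 and -0.72, adjusted p = 0.00586 and 0.0455). Col4a6 had a log2 fold change of -0.48 (adjusted p = 0.623) and passed among cells of at least 10000 UMIs (-1.63, adjusted p = 0.0439). Of the pathway genes 7 were higher and 2 lower, with a median of -0.10 against -0.04 over all genes. Adgrg6 was at 123 and 131 CPM against 16.9 and 12.8 (3.08 ± 0.21, adjusted p = 4.13e-09) and Itga1 at 525 and 614 against 126 and 146 (2.04 ± 0.26, adjusted p = 1.37e-05). Col18a1 and Lama5 were higher, and P4ha1, a prolyl 4-hydroxylase subunit, and Sec24d, a coat protein for secretion, lower.

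Stroma-like cells were the class outside epithelium with most Col4a4, and it was above the class average (log2 fold change 1.73 ± 0.16, adjusted p = 6.56e-09). Col4a3 was higher too, at 45.1 and 38.9 CPM (1.35 ± 0.25, adjusted p = 0.000117), a call lost with 1 more marker asked for (adjusted p = 0.132). Cells with at least 5 UMIs of the 2 chains were 69 of 496 (13.9%) and 90 of 458 (19.7%), and they held 68.9% and 87.8% of those UMIs. The remaining stroma-like cells stood at 54.8 and 27.8 CPM for both chains together. Podocyte markers summed to 64.5 CPM in the rich cells against 64.0 in the others of library 1, and to 37.8 CPM, lower than in the others, in library 2. A split of these cells by Foxd1, the gene of cortical stromal progenitors, and Penk, a gene of medullary stroma, was chosen after the values were seen and carries no test. Cells with both genes on held Col4a4 at 284 and 383 CPM and cells with Foxd1 alone at 139 and 228. Cells with Penk alone held 57.1 and 24.8 CPM and cells with neither 53.6 and 50.2. Col4a3 followed the same order of high and low groups, at 125 and 119.6 CPM with both on and 54.3 and 70.3 with Foxd1 alone, against 4.75 to 30.0 in the others.

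**Figure D4:**
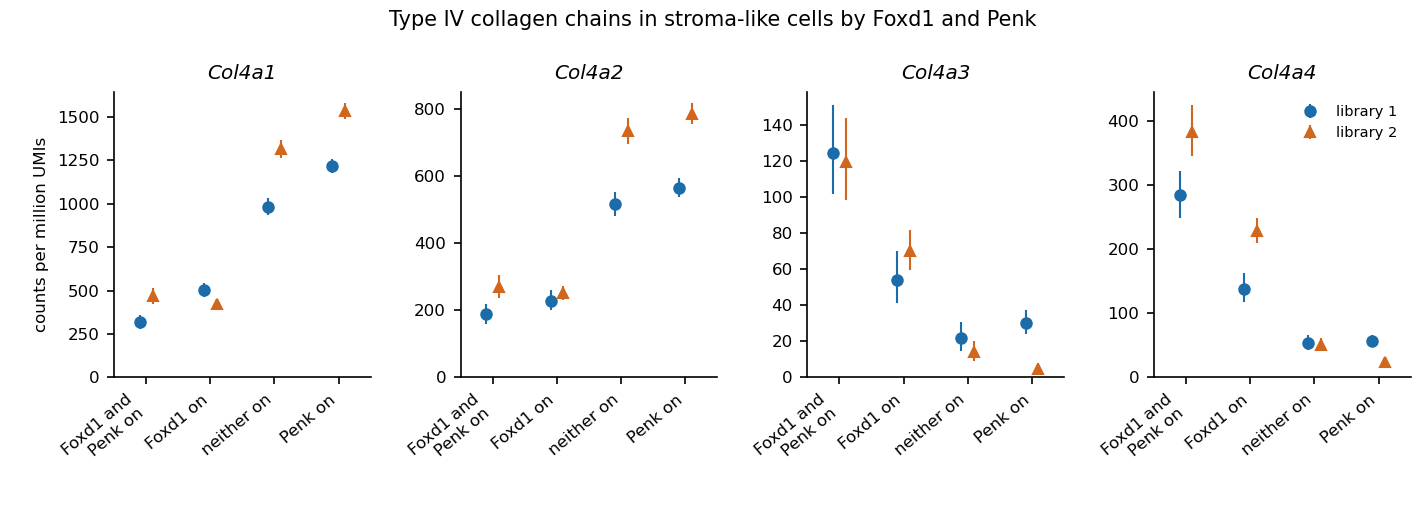
Levels of Col4a1 to Col4a4, in CPM, in stroma-like cells split by whether Foxd1 and Penk are on, 1 point for each library, with exact Poisson 95% intervals that cover counting error only. Foxd1-bearing cells hold 139 to 383 CPM of Col4a4 and 318 to 502 CPM of Col4a1, and cells without it 24.8 to 57.1 and 983 to 1533 CPM.

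The alpha1 chain was distributed the other way in the same split. Col4a1 stood at 318 and 468 CPM with both genes on and 502 and 424 with Foxd1 alone, but at 1214 and 1533 with Penk alone and 983 and 1312 with neither. Podocyte markers summed to 29.9 to 57.5 CPM in Foxd1-bearing cells and 54.6 to 67.5 CPM in the other cells. A part of podocyte RNA in the Col4a4 levels was not tested. Slc12a3, the defining transporter of the distal tubule, stood at 0 to 5.67 CPM. Slc8a1, a sodium-calcium exchanger on the distal tubule list, stood at 1039 to 2064 CPM in Foxd1-bearing and 519 to 611 CPM in the other cells, and its part in the Col4a4 levels was not tested.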

How the data were processed

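For each gene and barcode the authors deposited raw UMI counts, made with Cell Ranger 6.0.1 against mm10 per the submitters' processing notes, while the file header names version 4. Whether introns or strand entered the counting is not given in the sources used here. The 6 members, the 119 marker genes of 19 cell types, the pathway list and the rule for named genes (the largest changes past the threshold in each direction) were chosen with earlier results of these data known. Of 9735 cells, 2591 passed no gate and 702 passed several gates. Counts were summed per class and library and fitted with edgeR 4.0.16 in R 4.3.3 (TMM, filterByExpr, class means, library block, quasi-likelihood F-test), with Benjamini-Hochberg adjustment over all genes not used in gates, and the standard error was the log2 fold change divided by the square root of F. The libraries are the replicates and cells are not. A comparison within podocyte-like cells is not reported here. Intervals are exact Poisson or binomial at 95% and cover counting error only. Free RNA was taken from barcodes under 100 UMIs. Alternatives were other depth and mitochondrial limits, Scrublet doublet removal (scanpy 1.11.5, 245 and 142 cells), 1 more marker, subtraction of free RNA, DESeq2 1.42.0 and each library alone. The fits were tested on simulated data.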

Additional observations from a re-analysis of the deposited data

Results flagged for a closer look

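Barcodes outside the 16 classes also carried chain UMIs above the macrophage-like level. Cells that passed the urothelium gate, the lining of the renal pelvis, were too few for the fit (16 and 9 cells). They held Col4a5 at 126 CPM in library 1 and 163 in library 2, and Col4a6 at 138 and 160.0 CPM, above the Col4a6 level of every class in the fit. In the same cells Col4a3 had no UMI, which allows up to 9.28 and 11.8 CPM (exact Poisson), and Col4a1 stood at 75.4 and 51.2 CPM. No test was made on so few cells.

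Barcodes that passed both the podocyte and the endothelium gate (36 and 34 barcodes) held Col4a3 at 134 and 38.6 CPM, against 1152 and 1253 in podocyte-like and 16.6 and 42.9 in endothelial-like cells. Barcodes that passed no gate held Col4a5 at 72.8 and 76.5 CPM, against 60.2 and 82.8 in empty droplets.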

How the results depend on the processing

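Of the chain results that passed the threshold, 103 were recomputed under the alternatives, and in 951 of 1001 cases they kept their direction and their call, while 50 lost the call and 0 changed sign. Of the results that had not passed, 9 were recomputed, and 3 of their 90 values changed sign. Col4a2 in podocyte-like cells against the mean of the other classes went to -0.027 with 1 more marker and to -0.18 without macrophage-like and erythroid-like cells, an alternative chosen after seeing the data. Col4a3 in collecting duct-like cells against nephron tubules went to 0.31 at 10% mitochondrial UMIs or fewer, where distal tubule-like and intercalated-like cells fall out of the fit. Subtraction of free RNA left 18 of the 33 lower chain-by-class calls, and in collecting duct-like cells against nephron tubules 2 calls, 1 higher and 1 lower. Pericyte-like against stroma-like cells gave 5 calls, 3 of them lower, with Scrublet removal and 2 lower at 10000 UMIs or more. The Col4a3 and Col4a4 share in podocyte-like cells was 69.6% at 10000 UMIs or more, 72.3% with Scrublet removal, 74.7% with 1 more marker and 72.4% after free RNA was subtracted, and 71.6% to 72.1% with 1 library left out. The cause of these shifts was not tested. Without the replicate block by library, Col4a6 lost its call in podocyte-like against endothelial-like (adjusted p = 0.0574) and against early nephron-like cells (0.076). With 1 library alone there is no test, only a value. The subtraction is limited by its estimate, which was too high for alpha3 and alpha4 in glomerular endothelial-like cells of library 1. In that library it was 3.67% in nephron progenitor-like and 7.42% in macrophage-like cells. Those shares of Col4a3 in empty droplets (55.0 CPM) also exceed the class levels of 1.28 and 1.39 CPM. Lower calls lost under the subtraction are therefore hard to read where levels are this low. Col4a3 and Col4a6 rest on few UMIs in several classes, which limits the order of their levels.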
